A study of Homo sapiens with 24 samples.

Results

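The genes described here are 10 members of the BCL2 family that set whether a B cell survives. BCL2, BCL2L1 (BCL-XL), MCL1 and BCL2A1 (BFL-1) are pro-survival genes, and BCL2L11 (BIM), BIK, HRK, BBC3 (PUMA), PMAIP1 (NOXA) and BMF are BH3-only death genes. They were chosen by name, and every probe whose deposited gene name was one of the 10 symbols was taken, which gave 22 of 41000 probes and 10 of 30142 gene names.

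The transcription factor FOXP1 was silenced for 48 h in 4 diffuse large B-cell lymphoma (DLBCL) lines, and the RNA was compared on 2-colour arrays with RNA of the same line given a control siRNA. DB and K422 are lines of the germinal centre B-cell-like subtype (GCB-DLBCL), and HBL-1 and OCI-Ly3 of the activated B-cell-like subtype (ABC-DLBCL). All cells, controls included, were nucleofected with 1 µM duplex, either siFOXP1_308, siFOXP1_309 or the low GC negative control duplex (siCtrl). Each combination of line and FOXP1 siRNA had 3 replicates from separate experiments, so a line has 6 arrays and the series 24. The siFOXP1 RNA carried Cy3 and the siCtrl RNA carried Cy5 on all 24 arrays, so within a line the dye bias of a probe and the response to silencing cannot be told apart. Each line is a single tumour-derived culture, and a difference between the subtypes covers these 4 lines only.

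Pro-survival BCL2 proteins hold the mitochondrial effectors BAX and BAK in check, and BH3-only proteins bind the pro-survival proteins and release the effectors, after which cytochrome c leaves the mitochondrion and caspases are activated. The members differ in which partners they bind: PMAIP1 mainly engages MCL1 and BCL2A1, whereas BCL2L11 and BBC3 engage all pro-survival members. In germinal centre B cells BCL2 is normally silent, and its deregulated expression is a hallmark of many lymphomas.

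Several members were measured by more than one 60-base probe, and some of the results turn on which probe was read. The sequences below are given 5′ to 3′ on the strand of the transcript, with hg18 coordinates as the deposited files list them. All of them lie in protein-coding sequence. They are shown because they read the open reading frame of genes whose other probes gave a different value, because 2 of them overlap, or because their base composition matters below. Capitals mark the 46 bases shared by both BCL2L11 probes and, for HRK, the 18 bases that encode the core of the BH3 domain, the helix through which BH3-only proteins bind their partners.
MCL1 A_24_P319635, chr1:148817362-148817421, minus strand: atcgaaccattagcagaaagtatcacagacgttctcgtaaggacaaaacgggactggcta
BCL2A1 A_23_P152002, chr15:78050191-78050250, minus strand: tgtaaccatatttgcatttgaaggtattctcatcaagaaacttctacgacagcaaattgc
BCL2L11 A_23_P309991, chr2:111638189-111638248, plus strand: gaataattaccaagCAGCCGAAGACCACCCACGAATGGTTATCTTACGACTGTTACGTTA
BCL2L11 A_23_P425954, chr2:111638203-111638262, plus strand: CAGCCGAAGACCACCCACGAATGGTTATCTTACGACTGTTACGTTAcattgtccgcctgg
HRK A_24_P52882, chr12:115803353-115803412, minus strand: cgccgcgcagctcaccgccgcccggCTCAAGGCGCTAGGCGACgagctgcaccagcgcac
BBC3 A_23_P90189, chr19:52423274-52423333, minus strand: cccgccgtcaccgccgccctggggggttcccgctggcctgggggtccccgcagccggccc
BBC3 A_24_P305312, chr19:52416927-52416986, minus strand: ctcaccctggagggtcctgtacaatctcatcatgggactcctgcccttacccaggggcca

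The HRK probe holds 76.7% G and C and the brightest BBC3 probe 85%, whereas the other 20 member probes hold between 35% and 60%.

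A response and a level are reported. The response is the log2 ratio of siFOXP1 over siCtrl RNA on an array, and it was called when limma's Benjamini-Hochberg adjusted p over all genes was under 0.05 and the log2 ratio at least 0.5 in size. The control level is the log2 Cy5 signal of siCtrl cells minus the 75th percentile of its array, and a difference was called at the same adjusted p and a log2 difference of at least 1. Unless a probe is named, the brightest probe stands for the gene. A probe is described as well above background where the deposited flag says so.

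The FOXP1 transcript was lower on 6 of 6 arrays in each line. Its log2 ratio averaged -1.74 ± 0.55 (SD, n = 6) for HBL-1, -1.96 ± 0.54 for OCI-Ly3, -1.34 ± 0.47 for K422 and -2.0 ± 0.79 for DB. The B-cell markers CD79A, CD79B, MS4A1 and PAX5 were well above background in siCtrl cells of every line. The 5 GCB markers were so in DB and K422 and the 5 ABC markers in HBL-1 and OCI-Ly3, while MME was at background in both ABC-DLBCL lines and IRF4 and CCND2 in both GCB-DLBCL lines. Markers of the other subtype were not all off. Of the 5 GCB markers, 2 were well above background on all 6 arrays of HBL-1 and 2 on those of OCI-Ly3. Of the 5 ABC markers, 3 were so in DB and 2 in K422. In K422, 3 of 4 T-cell markers (CD3D, CD3E, CD2 and CD7) were well above background on all 6 arrays, and their summed signal was 4.78 to 5.44 times the array's 75th percentile against at most 0.177 in the other lines. Of 4 myeloid markers (CD14, LYZ, CSF1R and CD33), 3 were so in K422, summing to between 2.81 and 4.03 times the 75th percentile against at most 0.428 elsewhere, with LYZ at background. The part of these markers in the K422 results was not tested.

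On silencing of FOXP1, 5 members rose in HBL-1 (BCL2L1, BCL2L11, BIK, HRK and BBC3) and 3 in K422 (BCL2L1, BBC3 and BMF), and 0 members were called lower. Of all genes, 5.73% were called higher in HBL-1 and 2.34% in K422, and 4.21% and 2.1% were called lower. In DB, where 1.33% of all genes were called higher and 0.826% lower, and in OCI-Ly3, where 2.79% were called higher and 1.61% lower, limma called 0 members, and the methods' t-test also called 0. At an unadjusted p under 0.05 there were 6 members in DB and 5 in OCI-Ly3, beside 6 in K422 (BCL2, at background there, among them) and 7 in HBL-1. For such counts, here and below, the share of all genes was not computed, so they are counts only. The median log2 ratio of the 10 members was 0.48 for HBL-1, 0.16 for OCI-Ly3, 0.24 for K422 and 0.09 for DB, beside a median of 0 over all genes in each line. The 4 pro-survival genes had medians of 0.20, 0.16, 0.16 and 0.11 in the same order, and the 6 BH3-only genes 0.59, 0.18, 0.24 and 0.09. The K422 medians include a BCL2 ratio of -0.12 from a probe at background in both channels, and without it they were 0.33 for the members and 0.37 for the pro-survival genes. When probes were compared only with others of like GC content, HRK and BBC3 were no longer called on their brightest probes, which left 3 members in HBL-1 and 2 in K422, as described with those genes. The HBL-1 medians were then 0.205 for all members, 0.235 for the pro-survival and 0.205 for the BH3-only genes, beside 0.05 over all genes. In K422 they became 0.105, 0.175 and 0.105 beside 0.03, in OCI-Ly3 0.17, 0.18 and 0.115 beside 0.03, and in DB 0.055, 0.12 and 0.055 beside 0.01. Without BCL2, the K422 medians after this centring were 0.15 for the members and 0.37 for the pro-survival genes.

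**Figure D1:**
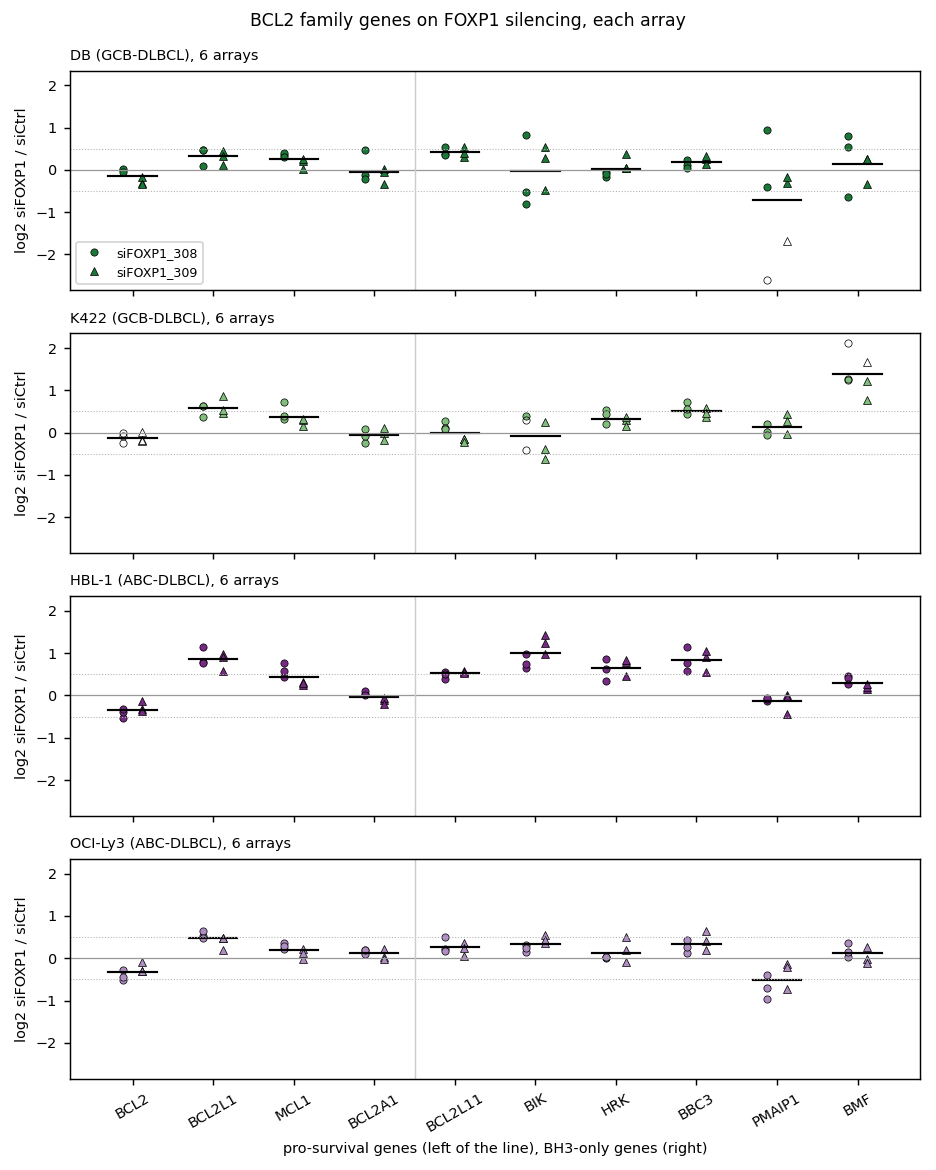
The log2 ratio of siFOXP1 over siCtrl RNA (y axis) is plotted for each of the 10 genes (x axis) on every array, with 1 panel per line, circles for siFOXP1_308, triangles for siFOXP1_309, a bar at the mean of 6 arrays and dotted lines at 0.5 and -0.5. Open symbols are arrays on which a channel was not well above background. BCL2L1 lies above 0 on all 6 arrays of every line, BIK lies between 0.65 and 1.42 in HBL-1, and BMF 0.78 to 2.11 in K422.

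Among the pro-survival genes, BCL2L1, which encodes BCL-XL, was above 0 on all 24 arrays. Its ratio on the 6 arrays had a lowest, median and highest value of 0.57, 0.86 and 1.15 for HBL-1, 0.38, 0.57 and 0.86 for K422, 0.20, 0.48 and 0.64 for OCI-Ly3, and 0.09, 0.39 and 0.47 for DB. The HBL-1 and DB arrays do not overlap, and K422 and OCI-Ly3 overlap with both. The mean was 0.87 ± 0.20 (SD, n = 6) in HBL-1 (limma adjusted p = 1.34e-07) and 0.58 ± 0.17 in K422 (adjusted p = 3.13e-05), both called. In OCI-Ly3 it was 0.47 ± 0.15 (limma adjusted p = 0.000224) and in DB 0.32 ± 0.17 (adjusted p = 0.00822), both under the limit of 0.5. The dimmer BCL2L1 probe, A_24_P100130, gave 0.72 ± 0.26 in HBL-1, which was called, 0.46 ± 0.41 in K422, where siCtrl signal passed the background flag on 2 of 6 arrays, and 0.21 and 0.23 for OCI-Ly3 and DB. Without replicate 3 of K422 the brighter probe gave 0.50 there, no longer called, and with normexp background correction and loess 0.32. In OCI-Ly3 it gave 0.53 without replicate 3, then called.

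MCL1, the short-lived pro-survival protein on which many B cells depend, was measured by 3 probes that did not give the same value. The brightest, A_24_P336754, ran from 0.24 to 0.77 with a median of 0.38 in HBL-1 and from 0.16 to 0.73 with a median of 0.32 in K422. Its means were 0.44 ± 0.20 in HBL-1 (limma adjusted p = 2.99e-06), 0.37 ± 0.19 for K422 (6.48e-05), 0.26 ± 0.13 for DB (0.0025) and 0.20 ± 0.13 for OCI-Ly3 (0.00981), all under the limit of 0.5. A_24_P336759 gave 0.49 for HBL-1, 0.31 for K422, 0.18 for DB and 0.23 for OCI-Ly3, and in HBL-1 it was 0.60 and called after centring on probes of like GC content (limma adjusted p over all probes = 0.00013). The probe in the coding sequence printed above, A_24_P319635, gave -0.05 ± 0.21, -0.06 ± 0.13, -0.04 ± 0.32 and 0.10 ± 0.17 in the same order, with arrays on both sides of 0 in each line.

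BCL2A1, an NF-κB-responsive survival gene, had a mean between -0.05 and 0.13 in the 4 lines on its brightest probe. On the coding probe A_23_P152002 the means were 0.02 ± 0.09 for OCI-Ly3, -0.28 ± 0.19 for HBL-1, -0.46 ± 0.38 for K422 and -0.67 ± 0.67 for DB. Fitted on its own among all probes, it was called lower in DB (limma adjusted p = 0.00242), where siFOXP1_308 gave -1.14 ± 0.55 (n = 3) and siFOXP1_309 -0.19 ± 0.34. Among all probes, 0.842% were called lower in DB.

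BCL2 itself lay between -0.54 and -0.14 with a median of -0.34 in HBL-1, and between -0.52 and -0.10 with a median of -0.30 in OCI-Ly3. All 12 arrays of these lines were thus below 0. The means of -0.34 ± 0.13 (limma adjusted p = 1.78e-05) and -0.32 ± 0.15 (0.000102) were under the limit of 0.5 in size, and DB gave -0.15 ± 0.15. With normexp background correction and median centring the HBL-1 value was -0.61 and BCL2 was called lower (adjusted p = 0.00679). In K422 this probe was not well above background in either channel on any array, so its ratio says nothing of the response. The other BCL2 probe, A_23_P208132, gave 0.20 ± 0.10 in HBL-1 and -0.12 ± 0.09 in OCI-Ly3.

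**Figure D2:**
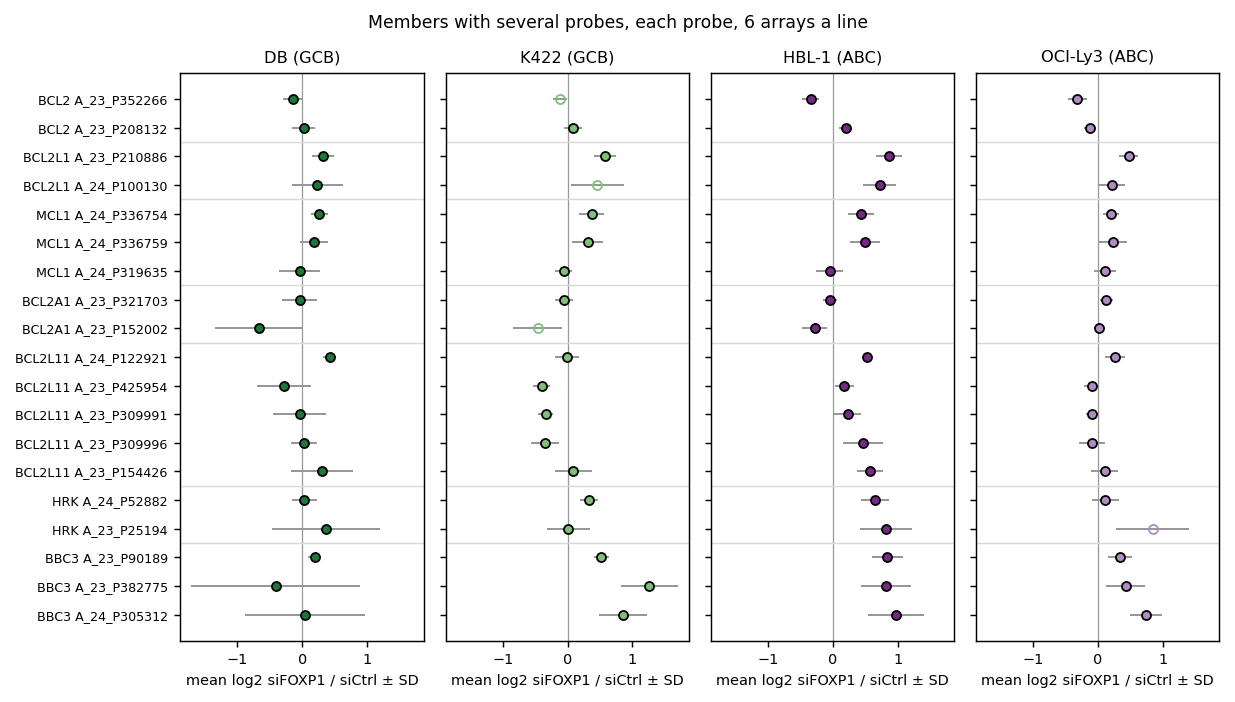
Mean log2 ratio of siFOXP1 over siCtrl RNA with its SD over 6 arrays (x axis) for each of the 19 probes of the 7 members that have several (y axis), with 1 panel per line and open symbols where a channel was not well above background on all 6 arrays. The BCL2L1 probes lie to the right of 0 in each panel, the coding MCL1 probe A_24_P319635 lies between -0.06 and 0.10, and the 5 BCL2L11 probes spread from -0.40 to 0.09 in K422.

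Among the BH3-only genes, BIK had the greatest called response among members with both channels well above background throughout a line. BIK encodes a BH3-only protein of the endoplasmic reticulum. Its HBL-1 arrays had a lowest, median and highest ratio of 0.65, 0.97 and 1.42, and those of OCI-Ly3 0.14, 0.33 and 0.55, so the arrays of both ABC-DLBCL lines were all above 0 and did not overlap with each other. In DB they ran from -0.80 to 0.83 and in K422 from -0.62 to 0.40, with 3 arrays on each side of 0 in both. The mean was 1.00 ± 0.29 in HBL-1 (limma adjusted p = 0.000197, called), 0.34 ± 0.14 for OCI-Ly3 (0.207), -0.08 ± 0.44 for K422 and -0.03 ± 0.66 for DB. In K422 the siCtrl signal passed the background flag on 4 of 6 arrays and the siFOXP1 signal on 5. With siFOXP1_308 alone the HBL-1 value was 0.79 with an adjusted p of 0.0992, and with siFOXP1_309 it was 1.21.

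BCL2L11, which encodes BIM, a broadly acting death protein of lymphocytes, gave a ratio between 0.40 and 0.58 with a median of 0.55 on the HBL-1 arrays. DB had a lowest, median and highest value of 0.31, 0.38 and 0.55, OCI-Ly3 of 0.06, 0.23 and 0.49, and K422 of -0.21, -0.03 and 0.27. HBL-1, DB and OCI-Ly3 were above 0 on all 6 arrays, and K422 on 3. The mean was 0.53 ± 0.06 in HBL-1 (limma adjusted p = 1.81e-07, called), 0.42 ± 0.10 in DB (1.87e-05) and 0.26 ± 0.15 in OCI-Ly3 (0.000772), the last 2 under the limit, and -0.01 ± 0.19 in K422. In K422 the siRNAs lay on opposite sides of 0, at 0.15 ± 0.10 for siFOXP1_308 and -0.17 ± 0.04 for siFOXP1_309 (n = 3 each), a difference of -0.32 that was not called (limma adjusted p = 0.271).

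The 5 BCL2L11 probes did not give the same value in every line. In HBL-1 all 5 were above 0 on average, from 0.18 for A_23_P425954 to 0.57 for A_23_P154426. In K422 the overlapping coding probes A_23_P309991 and A_23_P425954 were below 0 on 6 of 6 arrays, at -0.34 ± 0.12 and -0.40 ± 0.13, and A_23_P309996 gave -0.35 ± 0.22. In DB they gave -0.04, -0.28 and 0.03 beside 0.42 for the brightest probe. In OCI-Ly3 these probes gave -0.09, -0.10 and -0.10 beside 0.26 for the brightest, and A_23_P154426 gave 0.10, so the sign there depended on the probe. The mean over the 5 probes was 0.39 in HBL-1, no longer called, and siFOXP1_308 alone gave 0.49.

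HRK, a BH3-only gene best known from neurons, and BBC3, the p53 target that encodes PUMA, were called in HBL-1 on probes of extreme base composition. HRK arrays of HBL-1 had a lowest, median and highest ratio of 0.35, 0.70 and 0.87, those of K422 0.16, 0.34 and 0.53, OCI-Ly3 arrays -0.08, 0.03 and 0.50, and DB arrays -0.16, 0 and 0.37. The mean was 0.65 ± 0.21 in HBL-1 (limma adjusted p = 2.83e-06) and 0.33 ± 0.14 in K422 (0.00356). The BBC3 ratio lay between 0.56 and 1.15 with a median of 0.84 in HBL-1, and between 0.38 and 0.72 with a median of 0.51 in K422. Its means of 0.84 ± 0.24 (limma adjusted p = 1.87e-07) and 0.52 ± 0.12 (8e-05) were both called, and OCI-Ly3 gave 0.34 ± 0.19 and DB 0.19 ± 0.10. Without replicate 1 of K422 the BBC3 value there was 0.46, no longer called.

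Across the array, the ratio moved with the GC content of the probe, most of all in HBL-1. Among probes of at least 75% GC with signal well above background throughout a line, the median log2 ratio was 0.59 for HBL-1 (quartiles 0.35 and 0.74, 164 probes), 0.27 for K422 (0.15 and 0.39, 168 probes), 0.16 for OCI-Ly3 (0.03 and 0.22, 157 probes) and 0.09 for DB (0.03 and 0.15, 160 probes). Among probes under 40% GC it was -0.12, -0.06, -0.06 and -0.04 in the same order. The HRK value of HBL-1 lay within the quartiles of the probes of at least 75% GC, and the BBC3 values of HBL-1 and K422 lay above their upper quartile. After each array's ratios were centred on probes of the same GC class, HRK gave 0.06 in HBL-1 and BBC3 0.25 in both HBL-1 and K422, none of them called. BCL2L1 at 0.88, BCL2L11 at 0.64 and BIK at 1.11 were called in HBL-1 after this centring, and BCL2L1 at 0.59 and BMF at 1.32 in K422, also with replicates as a block. After centring, 5.15% of all genes were called higher in HBL-1 and 2.4% in K422.

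**Figure D3:**
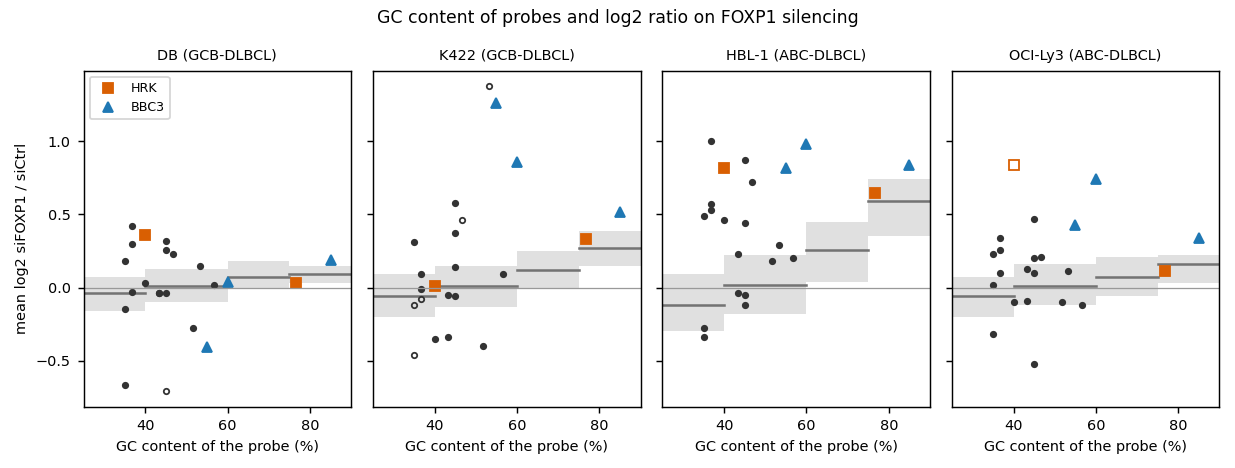
Mean log2 ratio of siFOXP1 over siCtrl RNA on 6 arrays (y axis) against the GC content of the probe in percent (x axis) for the 22 member probes, with HRK as squares, BBC3 as triangles, other members as dots and open symbols where a channel was not well above background on all 6 arrays. Grey lines and bands are the median and quartiles of all probes of that GC class that were well above background. In HBL-1 the class of 75% and over has a median of 0.59, and the brightest HRK probe lies at 0.65 and the brightest BBC3 probe at 0.84.

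The other probes of HRK and BBC3 have between 40% and 60% GC. HRK A_23_P25194 ran from 0.24 to 1.28 in HBL-1 and from 0.20 to 1.61 in OCI-Ly3, with 6 of 6 arrays above 0 in both lines. Its means of 0.82 ± 0.40 (limma adjusted p over all probes = 0.012) and 0.84 ± 0.56 (0.0174) were called, and after GC centring they were 0.88 and 0.87, again called. The siCtrl signal of this probe passed the background flag on 3 of 6 OCI-Ly3 arrays. K422 gave 0.01 ± 0.33 and DB 0.36 ± 0.83.

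BBC3 A_24_P305312, which reads coding sequence at the other end of the gene from the GC-rich probe, was above 0 on 6 of 6 arrays in K422, HBL-1 and OCI-Ly3. The lowest, median and highest ratios were 0.40, 0.82 and 1.48 for K422, 0.59, 0.84 and 1.57 for HBL-1, and 0.26, 0.83 and 0.93 for OCI-Ly3. Its means were 0.86 ± 0.37 (limma adjusted p over all probes = 0.014), 0.98 ± 0.43 (0.00327) and 0.74 ± 0.25 (0.033), all called, and after GC centring 0.76 in K422 and 0.77 in HBL-1 were called, whereas 0.67 in OCI-Ly3 was not (adjusted p = 0.0554). BBC3 A_23_P382775 gave 1.26 ± 0.44 in K422 (0.0072) and 0.82 ± 0.38 in HBL-1 (0.0499), both called, and after GC centring 1.19, called, and 0.68, not called (adjusted p = 0.106). Of all probes fitted in this way, 5.54% were called higher for HBL-1, 2.97% for OCI-Ly3, 2.32% for K422 and 1.32% for DB.

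BMF, a BH3-only gene tied to the cytoskeleton, had its response in K422, where the lowest, median and highest ratios were 0.78, 1.27 and 2.11. HBL-1 gave 0.15, 0.28 and 0.45, OCI-Ly3 -0.11, 0.09 and 0.35, and DB -0.63, 0.26 and 0.79. All K422 arrays thus lay above all HBL-1 and OCI-Ly3 arrays. The mean was 1.38 ± 0.45 in K422 (limma adjusted p = 7.5e-06, called), 0.29 ± 0.12 for HBL-1 (0.174), 0.15 ± 0.53 for DB and 0.11 ± 0.18 for OCI-Ly3. Of the K422 arrays, 6 had siFOXP1 signal and 3 had siCtrl signal well above background, so on the other 3 the denominator was not. With normexp background correction and loess the value was 0.40, no longer called (adjusted p = 0.00985).

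PMAIP1, which encodes NOXA, was below 0 on 6 of 6 OCI-Ly3 arrays, from -0.96 to -0.14 with a median of -0.55. Its mean there was -0.52 ± 0.33 (limma adjusted p = 0.24), beside 0.14 ± 0.20 in K422 and -0.12 ± 0.16 in HBL-1. The OCI-Ly3 value was called when replicate 2 of DB was left out of the shared spread (adjusted p = 0.0102) and when each line was fitted alone (0.0431). In DB the ratio ran from -2.61 to 0.94 with a mean of -0.71 ± 1.25 (0.129), and siFOXP1 signal passed the background flag on 4 of 6 arrays. Without replicate 3 of DB it was -1.25, then called (0.00332).

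The spread in DB followed the replicates for several members, among them PMAIP1 and the 2 BBC3 probes of lower GC content. In replicate 2 the level of BBC3 A_23_P382775 was 2.64 in siCtrl cells and 0.71 in siFOXP1 cells, while in replicate 3 it was 2.68 and 3.43. The ratios of BBC3 A_24_P305312 were -1.10 in replicate 2 and 0.84 in replicate 3, and those of PMAIP1 -2.14 and 0.38. The GC-rich BBC3 probe gave 0.25, 0.21 and 0.10 in replicates 1, 2 and 3 of DB. In the same order BMF gave 0.40, -0.48 and 0.53, BIK -0.50, -0.14 and 0.55, and HRK A_23_P25194 -0.02, -0.22 and 1.32. Not all probes ran this way, as BCL2A1 A_23_P152002 gave -0.15, -0.91 and -0.94. Over all genes the SD of the log2 ratio was 0.572 on the siFOXP1_308 array of replicate 3 and between 0.392 and 0.445 on the other 5 DB arrays, and its part in these values was not tested.

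**Figure D4:**
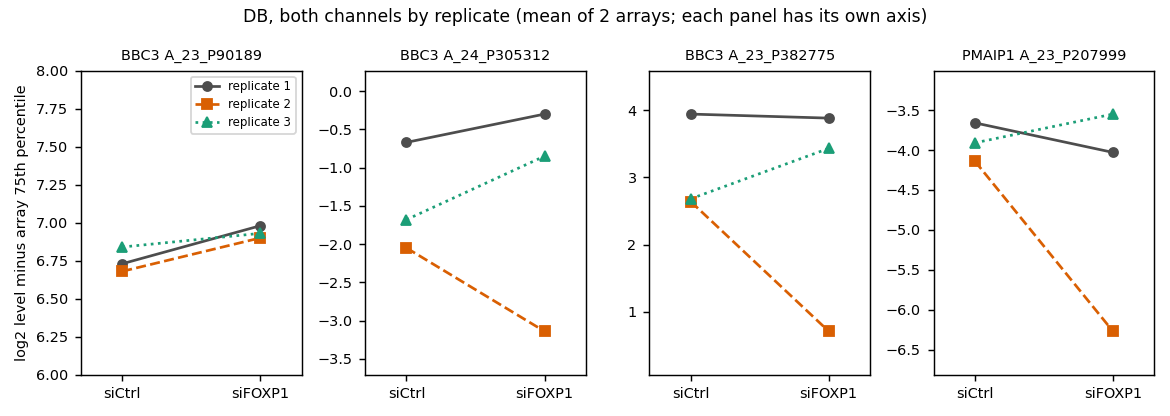
Log2 level relative to the array's 75th percentile (y axis, a separate scale in each panel) in siCtrl and siFOXP1 cells of DB (x axis), with 1 line per replicate and the mean of its 2 arrays as each point. In replicate 2 the level falls from 2.64 to 0.71 for BBC3 A_23_P382775 and from -4.14 to -6.27 for PMAIP1, whereas replicate 3 runs the other way for both, and the GC-rich BBC3 probe is nearly flat in all 3.

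Whether the response differed between lines was tested directly. Between the mean of HBL-1 and OCI-Ly3 and that of DB and K422, BIK differed by 0.72 (limma adjusted p = 0.0137) and BMF by -0.56 (0.0291), 2 of 10 members where 2.29% of all genes were called. With replicates as a block the BMF difference was no longer called (adjusted p = 0.0702), and BMF was also lost without replicate 1 or 3 of DB, any 1 replicate of HBL-1, or replicate 1 or 3 of OCI-Ly3 (adjusted p from 0.0557 to 0.0807). BIK was 0.67 without replicate 1 of HBL-1, no longer called (adjusted p = 0.0511). As HBL-1 gave 1.00 and OCI-Ly3 0.34 for BIK, and K422 1.38 and DB 0.15 for BMF, each of these subtype differences came mainly from 1 line.

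The signals of HBL-1 and K422 were extracted from the array images on the same day, and the lines are called an extraction batch here. Between them BCL2L11 differed by 0.53 (limma adjusted p = 3.77e-05), BIK by 1.07 (0.00854) and BMF by -1.09 (0.00334). These were 3 members, where 4.39% of all genes were called. On the slide that held replicate 3 of K422 beside replicate 1 of HBL-1, the differences were 0.62, 1.26 and -1.16 (2 arrays each). Without replicate 1 of HBL-1 the BIK difference was 0.98 and no longer called (adjusted p = 0.0597), and with normexp and loess that of BMF was -0.08. Between OCI-Ly3 and DB, the pair of the other extraction batch, limma called 0 members and the methods' t-test 0, with 2 at an unadjusted p under 0.05 and 1.42% of all genes called.

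The siRNAs were also set against each other. FOXP1 itself was lower with siFOXP1_309 than with siFOXP1_308 in every line, by -0.90 in HBL-1, -0.97 in OCI-Ly3, -0.85 in K422 and -1.40 in DB. For the members limma and the methods' t-test called 0 differences between the siRNAs in any line, where 0.299% (DB), 0.163% (K422), 0.179% (HBL-1) and 0.189% (OCI-Ly3) of all genes were called. At an unadjusted p under 0.05 there were 1, 2, 1 and 0 members in that order. They were BCL2 in DB, MCL1 and BCL2L11 in K422 and MCL1 in HBL-1, and for each the value with siFOXP1_309 was the lower, by -0.25, -0.22, -0.32 and -0.31.

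Levels in control-transfected cells were compared within each extraction batch. Between HBL-1 and K422, 7 members were called higher in HBL-1 (BCL2, BCL2L1, BCL2A1, BCL2L11, BIK, PMAIP1 and BMF), and between OCI-Ly3 and DB, 5 were higher in OCI-Ly3 (MCL1, BCL2A1, BCL2L11, PMAIP1 and BMF). Of all genes, 12.4% and 14.1% were called higher in these comparisons. BCL2 was called on a probe that was at background in K422. Its other probe, A_23_P208132, differed by 0.05 between HBL-1 and K422 and was not called. All members called were higher in the ABC-DLBCL line of the pair, whereas 13.5% and 11.7% of all genes were called lower there. BCL2A1, BCL2L11, PMAIP1 and BMF were called in both pairs, and the share of all genes called in both was not computed. The other 4 pairs of lines cross the extraction batches, so there line and batch cannot be told apart. In whole cultures, fewer expressing cells and less RNA per cell cannot be told apart either.

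**Figure D5:**
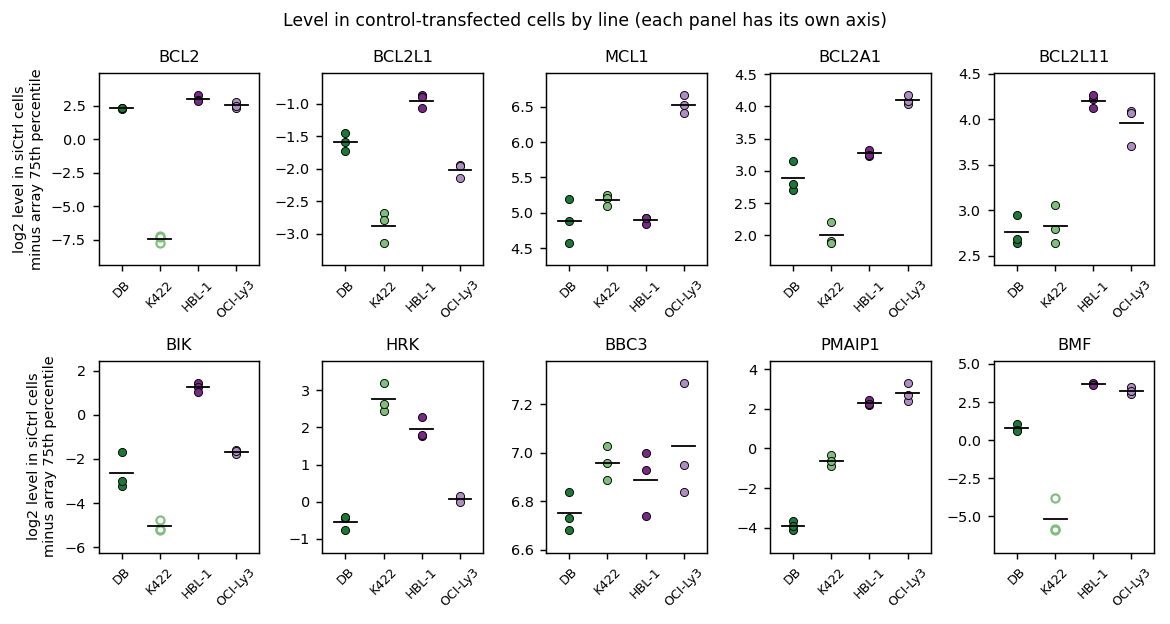
Log2 signal of siCtrl cells minus the 75th percentile of the array (y axis, a separate scale in each panel) in the 4 lines (x axis) for each of the 10 genes. Points are 3 replicates, bars their means, and open points mark lines where the gene was not well above background on all 6 arrays. On the brightest probes, which are shown, PMAIP1 is lowest in DB at -3.90, BMF and BCL2 are lowest in K422, and BBC3 lies between 6.75 and 7.03 in all 4.

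BMF had levels of 3.66, 3.77 and 3.63 in the HBL-1 replicates, 3.46, 3.00 and 3.25 for OCI-Ly3, 1.08, 0.66 and 0.62 for DB, and -3.81, -5.86 and -5.93 for K422. The lines of each extraction batch did not overlap, and K422 was above background on 3 of 6 arrays. The log2 difference between HBL-1 and K422 was 8.89 (limma adjusted p = 3.21e-08) and ran from 6.5 to 9.58 over the alternatives, so its size is uncertain. OCI-Ly3 was 5.47-fold above DB (2.45, 0.000941). K422, with the lowest control level, was also the line with the called response, and both values use its siCtrl signal.

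PMAIP1 had levels of 3.32, 2.39 and 2.69 for OCI-Ly3 and -3.66, -4.14 and -3.91 for DB, a 104-fold difference (log2 difference 6.71, limma adjusted p = 1.46e-09). The log2 difference ran from 4.97 to 6.91 over the alternatives, so its size is uncertain. In HBL-1 the PMAIP1 levels were 2.47, 2.17 and 2.24 and in K422 -0.32, -0.91 and -0.61, a 7.49-fold difference (2.90, adjusted p = 1.91e-06). BIK had levels of 1.46, 1.26 and 1.05 in HBL-1 and -4.76, -5.24 and -5.18 in K422, a log2 difference of 6.31 (adjusted p = 3.98e-08) that ran from 3.92 to 7.39 over the alternatives. The K422 signal passed the background flag on 4 of 6 arrays, so the size of this gap is uncertain too. Its level in OCI-Ly3 was -1.67 ± 0.09 (SD, n = 3) and in DB -2.64 ± 0.83, a difference of 0.98 that was not called (limma adjusted p = 0.0335) but was 1.45 and called without replicate 1 of DB.

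BCL2L11 levels were 4.22, 4.26 and 4.12 for HBL-1, 4.09, 3.71 and 4.07 for OCI-Ly3, 2.64, 2.79 and 3.06 for K422, and 2.64, 2.95 and 2.69 for DB. No replicate of an ABC-DLBCL line overlapped with one of a GCB-DLBCL line. The difference was 1.37 between HBL-1 and K422 (limma adjusted p = 2.42e-05) and 1.2 between OCI-Ly3 and DB (6.34e-05). On the other BCL2L11 probes it ran from 0.78 to 1.12 between HBL-1 and K422, where A_23_P309991 (0.98) and A_23_P309996 (0.78) were not called. Between OCI-Ly3 and DB those probes gave 1.98 to 2.79, so the size depended on the probe. HRK ran the other way in 1 pair, at 2.76 ± 0.39 in K422 and 1.95 ± 0.28 in HBL-1, and was 0.08 ± 0.09 in OCI-Ly3 and -0.54 ± 0.20 in DB, neither pair past the limit of 1. The HRK probe of lower GC content had its lowest level in OCI-Ly3, at -4.82 ± 0.48, and the mean over both probes gave -1.25 between OCI-Ly3 and DB, called in the opposite direction.

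Of the pro-survival genes, BCL2 had levels of 3.28, 2.94 and 2.89 for HBL-1, 2.79, 2.33 and 2.48 for OCI-Ly3 and 2.32, 2.29 and 2.37 for DB, and was not well above background on any K422 array. The log2 difference between HBL-1 and K422 was 10.45 (limma adjusted p = 6.41e-12), with the K422 signal at background. It ran from 5.25 to 10.55 over the alternatives, so its size is uncertain. Set against the lowest signal that was well above background, BCL2 in HBL-1 was 362-fold higher, a value that was not tested. OCI-Ly3 and DB differed by 0.20 (0.443). The other BCL2 probe was well above background in every line, with levels of 0.10 ± 0.04 in HBL-1, 0.05 ± 0.07 in K422, -0.52 ± 0.28 in OCI-Ly3 and -0.85 ± 0.17 in DB, so the K422 gap was seen on 1 of 2 probes.

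MCL1 was highest in OCI-Ly3 at 6.53 ± 0.13, with 4.88 ± 0.31 in DB, 4.89 ± 0.05 in HBL-1 and 5.18 ± 0.09 in K422. The OCI-Ly3 level was 1.65 above that of DB (limma adjusted p = 4.46e-06), and HBL-1 and K422 differed by -0.29 (0.163). BCL2A1 was higher in the ABC-DLBCL line of both pairs, by 1.21 (limma adjusted p = 2.87e-05) and 1.27 (2.17e-05), and its difference between OCI-Ly3 and DB was 1.00 and no longer called after quantile normalization. On the coding probe A_23_P152002 the differences were 4.03 between OCI-Ly3 and DB (16.3-fold, limma adjusted p over all probes = 3.52e-06) and 5.78 between HBL-1 and K422 (55.1-fold, 1.98e-07), both called, with K422 well above background on 5 of 6 arrays. The size of the BCL2A1 gap thus depended on the probe. BCL2L1 was at -0.95 ± 0.11 in HBL-1 and -2.87 ± 0.24 in K422, a difference of 1.92 (adjusted p = 9.37e-07), and at -2.01 ± 0.11 in OCI-Ly3 and -1.58 ± 0.14 in DB. BBC3 lay between 6.75 and 7.03 in all 4 lines on the GC-rich probe, while A_23_P382775 ran from 0.79 in K422 to 4.79 in OCI-Ly3.

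The rest of the death pathway was read from a list of other BCL2 family genes and one of caspase, apoptosome and inhibitor of apoptosis genes. Of 13 other BCL2 family genes, 0 were called in DB and K422, with 3 and 8 at an unadjusted p under 0.05. That unadjusted p was passed by 10 in HBL-1 and 7 in OCI-Ly3. In HBL-1, 2 were called lower, one of which, BCL2L10, was at background on all 6 arrays. The other was BID, the BH3-only link from death receptors to mitochondria, at -0.69 ± 0.23 (limma adjusted p = 3.02e-07). In OCI-Ly3, 1 was called lower, BCL2L10, at -0.59 ± 0.13 (0.0253). The effectors BAX and BAK1 were in this list and were not called in any line. The list's median was 0.16 for HBL-1, 0.09 for OCI-Ly3, 0.18 for K422 and 0.05 for DB, beside 0 over all genes. Between responses, BCL2L10 differed by -0.75 between the subtypes (limma adjusted p = 0.0121) and by -0.91 between HBL-1 and K422 (0.0261), although it was at background on every array of DB, K422 and HBL-1. BCL2L14 differed by 0.55 between OCI-Ly3 and DB (0.0478), although it was at background on every DB array and was called in neither line.

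Of 19 caspase, apoptosome and inhibitor of apoptosis genes, 0 were called in DB and K422, with 3 and 7 at an unadjusted p under 0.05. That unadjusted p was passed by 13 in HBL-1 and 9 in OCI-Ly3. CASP6, an executioner caspase, was lower in HBL-1 at -0.52 ± 0.17 (limma adjusted p = 2e-05), and CASP9, the initiator caspase of the mitochondrial pathway, was higher in OCI-Ly3 at 0.65 ± 0.19 (9.14e-08). CASP9 also differed between the OCI-Ly3 and DB responses by 0.50 (0.000294). The list's median was between -0.02 and 0.10 in the 4 lines. Over both lists, 3 of 32 genes were called in HBL-1 and 2 in OCI-Ly3, where 9.94% and 4.4% of all genes were.

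Among 14301 genes with both channels well above background on 20 or more arrays, those whose ratio was most like that of BIK over the 24 arrays were C9orf95 (Pearson correlation 0.875), TP53INP1 (0.850) and the unnamed probe A_32_P108592 (0.837). The arrays share their line, siRNA and experiment, so they are not 24 independent points.

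The windows around the annotated starts of the members, 300 bases each, were searched for the forkhead core motif TGTTTAC on both strands, since FOXP1 binds DNA through a forkhead domain. RefSeq entries (GRCh38.p14) were at hand for 8 members, and 1 of them, BCL2L11, held a match, beside 3.42% of 35116 promoter windows. MCL1 and BIK are named only. The match, in capitals as its reverse complement, begins at position -223 from the annotated start and is shown with its surroundings, on the plus strand.
BCL2L11, chr2:111120664-111120783: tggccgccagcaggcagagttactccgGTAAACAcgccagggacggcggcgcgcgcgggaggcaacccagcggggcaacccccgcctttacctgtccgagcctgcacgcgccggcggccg

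A match of letters is a description and does not say whether FOXP1 binds there.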

How the data were processed

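Total RNA of siFOXP1 and siCtrl cells was hybridised by the authors to 24 two-colour Agilent arrays (6 slides of 4), and the deposited Feature Extraction output gives each channel's intensity and the log10 of the Cy5 to Cy3 ratio, background-subtracted and normalized within each array by linear and loess steps. The headers give version 10.5.1.1 for DB and OCI-Ly3 (extraction batch 1) and 10.7.3.1 for K422 and HBL-1 (extraction batch 2). Each batch thus held 1 line of each subtype. The batches follow the extraction day in the headers, and the scan dates were not used. The authors also deposited a matrix of log2 ratios, which correlated at 0.804 to 0.998 with the ratios used here and served as an alternative.

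Of 45015 spots, the 1639 controls were dropped, as were outlier spots (113 to 469 an array). The deposited ratio was put on the log2 scale with the siFOXP1 channel as numerator, so positive values are higher in siFOXP1 cells. R 4.3.3 with limma 3.58.1 fitted the 8 group means in 1 model, and both siRNAs of a line were then averaged. Adjustment ran over 30138 genes. For control levels, the 2 arrays of a line and replicate were averaged (n = 3 a line), and 30085 genes were tested. Whether both used the same control RNA is not known. On an array 57.3% to 64.5% of probes had a channel well above background, and precision is limited by how many arrays there are. No member probe was saturated. The fits were tested on simulated data. Figures were drawn in matplotlib 3.10.9 under Python 3.11.15.

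The members, pathway lists and markers were chosen with earlier results of these data known. All members were named with every probe, and of the pathway lists the called genes. As the study describes independent experiments, replicate numbers were taken as pairing the arrays of a line. Deviations within a pair correlated at 0.0456 to 0.285 over all genes and at 0.0958 to 0.536 over 17147 bright genes. Alternatives were normexp (offset 50) with loess or median centring, that matrix, filters on dim probes (12 arrays), outlier spots kept, other probe rules, replicate and slide blocks, another prior, each line or siRNA alone, line means, the methods' t-test and leaving out each replicate, and for control levels also quantile normalization and the Cy3 channel. Counting a member on any probe, GC centring, alone and with the block, and medians without genes at background were chosen after seeing the data.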

Additional observations from a re-analysis of the deposited data

Results flagged for a closer look

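Of 40 groups of 6 arrays, 1 per member and line, 2 held an array far from the others, and about 1 in 20 groups would do so by chance. BCL2L1 in OCI-Ly3 gave 0.20 with siFOXP1_309 replicate 3 while the other 5 arrays ran from 0.48 to 0.64. PMAIP1 in HBL-1 gave -0.43 with siFOXP1_309 replicate 1 while the others ran from -0.12 to 0.

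Differences between lines in the response to silencing passed the test of the difference itself for 3 members. BCL2L11 differed by 0.53 between HBL-1 and K422. BIK differed by 1.07 between HBL-1 and K422 and by 0.72 between the ABC-DLBCL and GCB-DLBCL lines. BMF differed by -1.09 between HBL-1 and K422 and by -0.56 between the ABC-DLBCL and GCB-DLBCL lines. Tested on the 4 line means, limma called neither subtype difference (adjusted p = 0.935 for both), and with replicates as a block that of BMF was not called (0.0702).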

How the results depend on the processing

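The 3 members called in K422 were 0 under normexp with loess and 0 under normexp with median centring, where BBC3 turned to -0.14, not called. The 5 in HBL-1 were 2 under normexp with median centring (BIK higher and BCL2 lower, at -0.61 with an adjusted p of 0.00679) and 3 after GC centring, with or without the replicate block. The 0 in OCI-Ly3 became 1 under normexp with median centring and with each line fitted alone (PMAIP1), 1 with siFOXP1_308 alone (BCL2L1) and 2 when any probe counted (BBC3 and HRK), and the 0 in DB became 1 when any probe counted (BCL2A1). The 2 between subtypes were 1 under normexp with loess, both forms of the replicate block, GC centring with the replicate block, the methods' t-test and siFOXP1_309 alone, and 0 under normexp with median centring, siFOXP1_308 alone and the 4 line means. The 3 between HBL-1 and K422 were 1 under normexp with median centring and 0 with siFOXP1_308 alone. Leaving out replicates gave 0 to 1 members in DB, 2 to 3 in K422, 5 to 5 in HBL-1, 0 to 1 in OCI-Ly3, 0 to 2 between subtypes, 2 to 3 between HBL-1 and K422, and for control levels 5 to 6 between OCI-Ly3 and DB and 7 to 7 between HBL-1 and K422. The control level of HRK between OCI-Ly3 and DB reversed to -1.25 with the mean over probes. The replicate block (consensus correlation 0.248) changed no call but that of BMF between subtypes, and slide as a block (0.157) changed none. Of 3450 single values under an alternative, 49 lost a call, 11 gained one, 2 reversed and 105 that were never called changed sign. The causes were not tested. Dim siCtrl signal limits BMF, BIK and BCL2 in K422 and HRK A_23_P25194 in OCI-Ly3, and without dye swaps a probe's dye bias stays in every response.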
